A study of Lobosphaera incisa with 32 samples.

Results

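Genes of the green microalga *Lobosphaera incisa* were compared between 72 h and 12 h of N deprivation under high light. The deposited quantification lists 16722 genes, and 14035 of them had at least 1 FPKM (a read count scaled for transcript length and sequencing depth) at one of both times and were kept, while 2687 were left out. The comparison rests on 16 of the 32 samples of the series, all of strain SAG 2468. Cells of both groups had been grown in complete medium at a photon flux of 75 µmol per square metre per second, washed, moved to medium without N at the same starting chlorophyll content, and lit at 150 µmol (high light, HL). They were harvested after 12 h in one group and after 72 h in the other, so the labels differ only in time, and whether the same cultures were sampled at both times is not stated. Each group has 2 biological replicates sequenced in 4 technical replicates each, and the authors deposited 1 pooled value per gene and condition. Pooling removes the spread between cultures, so no test between the times was computed from them, the p-values that the authors deposited for this pair were not used, and every difference below describes these pooled libraries. The other conditions of the series are a replete culture at 0 h and a culture kept without N for 72 h, both at 75 µmol (normal light, NL). No group was harvested at 12 h at NL. Between 0 h and 12 h, N supply, light and time thus differ together and cannot be told apart.

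In microalgae, loss of N stops cell division, leads to the dismantling of part of the photosynthetic and protein-making machinery, and turns carbon flow towards triacylglycerol stored in lipid droplets. *L. incisa* is known for placing the long-chain polyunsaturated fatty acid arachidonic acid (ARA) in this storage lipid. Autophagy, the enclosure of cytoplasm in a double membrane and its delivery to the vacuole, is one of the routes by which starved cells recycle their own components.

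Each gene was described by its centred log2 ratio, which is log2 of the 72 h level over the 12 h level after adding 1 FPKM to both, less the median over all genes kept. That median was -0.21, and subtracting it sets the typical gene at 0. FPKM is a share of the RNA sequenced, so that a change in the total RNA of a cell cannot be told apart from a change of the remaining genes. Past a centred 2-fold difference, 1322 genes (9.42% of those kept) were higher at 72 h and 2259 (16.1%) were lower, which makes 3581 genes (25.5%) in either direction. The differences towards lower levels were also the larger ones. At 4-fold, 260 genes (1.85%) were higher and 994 (7.08%) lower, and at 8-fold 54 genes (0.385%) were higher and 400 (2.85%) lower. The distribution was narrow between its quartiles of -0.56 and 0.44, while the lowest 1% of genes lay below -3.77 and the highest 1% above 2.36 on the centred log2 scale. Higher genes made up 36.9% of the genes past 2-fold, and 25.0% when no median was subtracted (922 higher, 2761 lower) or 25.1% with expected counts divided by their total (964 higher, 2874 lower). Lower genes outnumbered higher ones under each of these scalings. At the minimum of 1 FPKM, the 79 genes just outside (highest level from 0.9 FPKM) had a median centred log2 ratio of -0.14, and the 72 genes just inside (up to 1.1 FPKM) a median of 0.03.

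**Figure D1:**
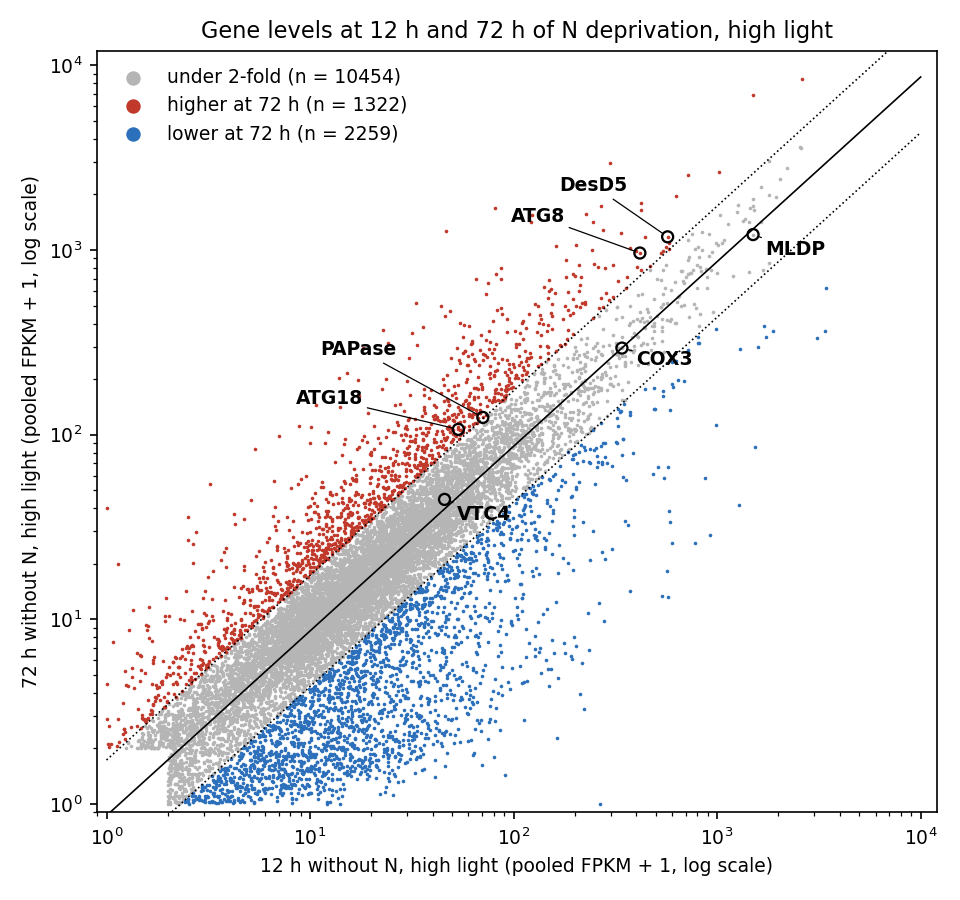
Pooled FPKM plus 1 of the 14035 genes kept at 12 h (horizontal axis) and 72 h (vertical axis) of N deprivation under high light, both on log scales, 1 point per gene; the solid line marks the median ratio and the dotted lines a 2-fold distance from it. The cloud reaches farther below the line than above it, with 2259 genes lower and 1322 higher at 72 h past 2-fold.

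The pooled libraries are deep, so counting error is small beside these differences. Expected counts (reads assigned to genes by RSEM) added up to 285924034 at 12 h and 214719396 at 72 h. The 95% interval that RSEM gives for a level had a median half-width of 1.61% at 12 h and 1.91% at 72 h among genes of at least 10 FPKM. The intervals of both times did not overlap for 12850 genes (91.6%), far more than the 3581 genes past 2-fold. These intervals cover counting and the assignment of reads only, so that a gene outside them is not thereby shown to differ between cultures. Widths were compared in 14026 genes with at least 100 expected counts at one of both times. For 446 of them (3.18%) the interval was more than 1.5 times as wide as counting alone gives, as occurs where reads are shared among similar sequences. Without those genes 8.99% of 13589 genes were higher and 16.4% lower.

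The genes past 2-fold were chosen by these same levels, so the direction of their share of the RNA is set by that choice and only its size is a description. The higher genes accounted for 10.1% of all TPM (a level that adds up to the same total in each library) at 12 h and 31.4% at 72 h, and 83 of them (6.28%) were under 1 FPKM at 12 h. The lower genes accounted for 21.3% of all TPM at 12 h and 4.26% at 72 h, where 658 of them (29.1%) were under 1 FPKM. Complete absence was rare. Only 8 genes had an expected count of 0 at one of both times only, 3 at 12 h and 5 at 72 h.

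The share of genes past 2-fold differed with the level. Genes were divided into quintiles by their mean FPKM of both times. This mean comes from the same levels as the ratio, so quintile and direction are not independent and the shares are a description only. In the quintile with the lowest levels (0.5 to 5.275 FPKM), 6.73% of 2810 genes were higher and 21.6% lower past 2-fold. The share lower declined through 18.9%, 14.9% and 12.9% to 12.2% in the quintile with the highest levels (above 42.4 FPKM). In that top quintile 19.3% of 2807 genes were higher, so that there alone higher genes outnumbered lower ones, with 542 against 343. The median centred log2 ratio increased along the quintiles from -0.11 to 0.17. Transcript length made less difference, as 9.23% to 9.84% of genes were higher in every quintile by length, while the share lower was 14.2% to 16.1% in 4 of the quintiles and 20.2% in the quintile with the longest transcripts.

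**Figure D2:**
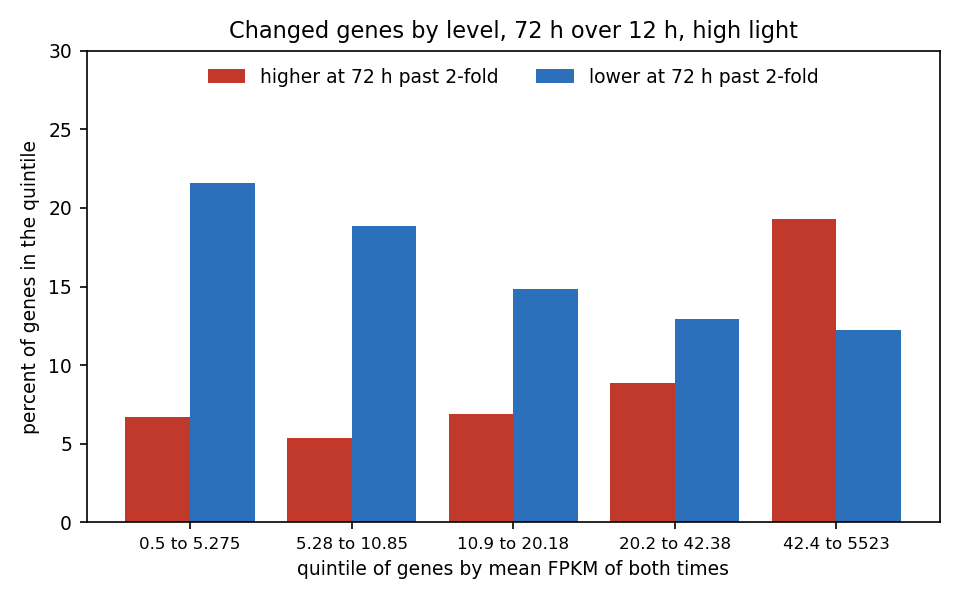
Percent of genes past 2-fold higher (red) and lower (blue) at 72 h than at 12 h under high light, in quintiles of all genes kept by their mean FPKM of both times. Red bars are lowest in the quintile next to the lowest (5.35%) and highest in the top quintile (19.3%), while blue bars decline from 21.6% to 12.2%.

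Fewer genes held a given share of the RNA at 72 h than at 12 h, and the replete culture at 0 h was more concentrated than either. The gene with the highest level at each time held 0.585% of all TPM at 12 h and 1.45% at 72 h, corresponding to 3436 and 8427 FPKM. The top 10 genes held 4.39% and 6.71%, the top 100 held 19.7% and 24.1%, and the top 1000 held 51.5% and 58.7%. At 0 h the top gene held 1.87%, the top 10 held 9.21%, the top 100 held 32.1% and the top 1000 held 64.5%. At the other end, 13823 genes reached 1 FPKM at 12 h and 13075 at 72 h, and 9178 against 7863 genes reached 10 FPKM. The upper ranks were partly exchanged. Of the top 100 genes at 72 h HL, 58 were also among the top 100 at 12 h, and 80 were among the top 100 at 72 h NL. The median rank at 12 h of these 100 genes was 77, 4 of them ranked below 1000 at that time, and the lowest placed was at rank 2755.

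The remaining conditions of the series, N deprivation for 72 h at NL and the replete culture at 0 h, share no library with the pair compared and were read for the same genes. The median level of the 1322 higher genes was 16.0 FPKM at 0 h, 15.7 at 12 h, 37.2 at 72 h NL and 41.6 at 72 h HL. The 2259 lower genes had a median of 6.52 FPKM at 0 h, 18.5 at 12 h, 2.84 at 72 h NL and 2.46 at 72 h HL. The levels at 12 h and 72 h HL chose these genes, which also favours a high value at 12 h against 0 h, whereas the levels at 0 h and 72 h NL were not used. Between the latter conditions, the median was lower at 72 h NL. The 994 genes lower past 4-fold, for which the stricter limit itself widens the gap between 12 h and 72 h HL, had medians of 5.30 FPKM at 0 h, 23.3 at 12 h, 1.78 at 72 h NL and 1.5 at 72 h HL. Genes within 2-fold had medians of 14.1, 15.5, 13.55 and 13.4 FPKM in the same order.

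As a ratio of 72 h NL over 0 h, centred in the same way, 1475 of 13789 genes kept (10.7%) were higher and 1849 (13.4%) lower past 2-fold. Among the 1299 genes higher at 72 h than at 12 h under high light that were also kept there, 795 (61.2%) were higher and 32 (2.46%) lower, with a median centred log2 ratio of 1.27. Among the 2075 lower genes kept there, 820 (39.5%) were lower and 24 (1.16%) higher, with a median of -0.74. The remaining 10246 genes had a median of 0.04, with 6.30% higher and 9.07% lower. Both groups thus lay to their own side in these libraries. Among the genes past 4-fold, 222 of 258 higher genes (86.0%) were higher there and 448 of 946 lower genes (47.4%) were lower past 2-fold. Across 13620 genes kept in both comparisons, the centred log2 ratios had a Pearson r of 0.58 and a Spearman rho of 0.61. These describe genes, which are not independent replicates, and both 72 h conditions share the duration without N.

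**Figure D3:**
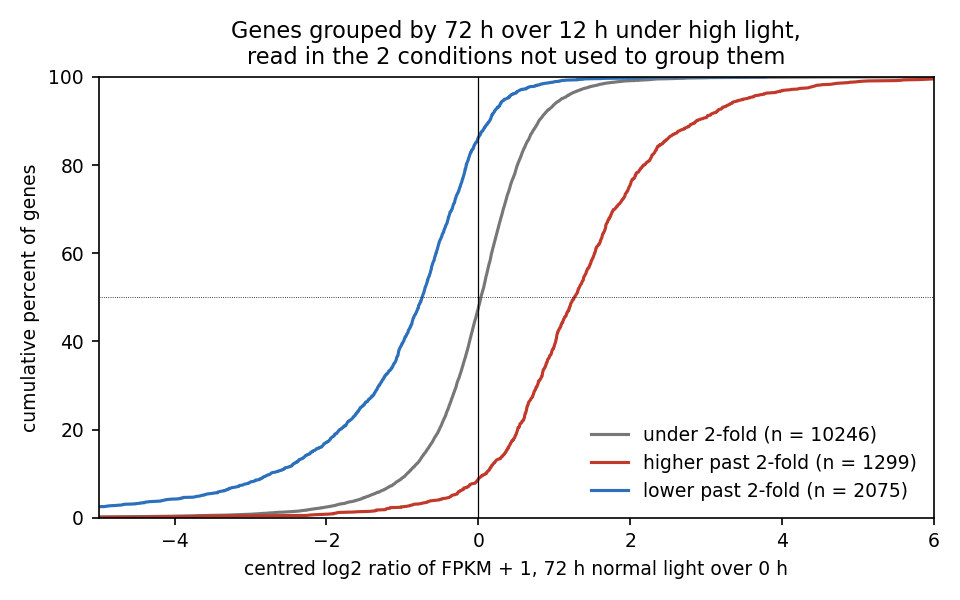
Cumulative percent of genes against the centred log2 ratio of FPKM + 1 at 72 h NL over 0 h, for genes higher, lower or within 2-fold at 72 h over 12 h under high light. The curve of higher genes crosses 50% at 1.27, that of lower genes at -0.74 and that of the remaining genes at 0.04.

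Of the 14035 genes, 31 carry a name in the study's tables, and the files do not pair the other IDs with names. Past 2-fold, 4 of these 31 genes (12.9%) were higher at 72 h, beside 9.42% of all genes, and none was lower, beside 16.1%. The median centred log2 ratio of the 31 genes was 0.13. Their median level at 12 h was 29.0 FPKM, against 15.95 for all genes kept, and the shares past 2-fold differ with level. In the top quintile by mean FPKM, 19.3% of all genes were higher and 12.2% lower, so 12.9% is not read as an excess. The higher genes were *ATG8*, *ATG18*, *DesD5* and *PAPase*. The study picked *PAPase* for its rise without N in these same samples, so its direction is not independent evidence. *SNRP* and *COX3* were picked as references with stable expression without N, so their small ratios are not independent evidence either. At 12 h and 72 h HL, the interval of the named genes was between 0.988 (*ATG2* at 72 h) and 1.04 (*ATG18* at 12 h) times as wide as counting alone gives.

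Among the 22 ATG-related genes, 2 (9.09%) were higher past 2-fold and none was lower, beside 9.42% and 16.1% of all genes, and the median centred log2 ratio was 0.05 (-0.16 to 0.12 under other scalings and units), with 11 genes above and 11 below 0. Their median level was 13.6 FPKM at 0 h, 19.4 at 12 h, 20.6 at 72 h NL and 19.0 at 72 h HL. Single members ranged from -0.40 (*ATG13*) to 1.42 (*ATG8*), so that the median describes no common course. The names were assigned by similarity to proteins of other species, and the roles given here are those of the yeast or plant proteins.

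*ATG8* (g4496) encodes the ubiquitin-like protein that is attached to the membrane of the autophagosome. It was at 265 FPKM at 0 h, 416 at 12 h, 827 at 72 h NL and 962 at 72 h HL. The level under high light was 2.31 times as high at 72 h as at 12 h, a centred log2 ratio of 1.42, which exceeded that of 95.2% of genes. The RSEM interval was 414 to 419 FPKM at 12 h and 958 to 967 at 72 h, and the rank of *ATG8* among all genes moved from 176 to 62. *ATG18* (g11431) encodes a phosphoinositide-binding protein that acts with ATG2 and is listed with the ATG9 complex. Its level was 53.6 FPKM at 0 h, 52.5 at 12 h, 99.6 at 72 h NL and 105.9 at 72 h HL, a ratio of 2.02 and a centred log2 ratio of 1.21 (0.97 with expected counts divided by their total, which is under 2-fold). The level of *ATG18* at 12 h (high light) was thus close to that at 0 h (normal light), whereas *ATG8* was higher at 12 h.

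The remaining 7 genes for the attachment of ATG8 were within 2-fold, with centred log2 ratios from -0.39 to 0.54. *ATG4*, the protease that trims ATG8, was at 14.25 FPKM at 0 h, 32.1 at 12 h, 21.65 at 72 h NL and 21.0 at 72 h HL. *ATG3*, the enzyme that passes ATG8 to its lipid, was at 33.2, 58.3, 36.1 and 38.2 FPKM in the same order. Both had their highest level at 12 h and a ratio of 0.655 of 72 h over 12 h under high light, on the opposite side of 1 from *ATG8*. *ATG7*, the activating enzyme, had a ratio of 0.794, *ATG5* 0.846, *ATG10* 0.765 and *ATG16* 0.700. These ratios are not centred, and the median gene itself had a log2 ratio of -0.21 before centring. Centred, their log2 ratios were -0.11, -0.03, -0.15 and -0.25 in the same order. *ATG12*, the second ubiquitin-like protein, had a ratio of 1.26.

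In the ATG1 kinase complex, which starts autophagosome formation, none of the 3 genes was past 2-fold. The kinase gene *ATG1* was at 6.96 FPKM at 0 h, 13.9 at 12 h, 17.7 at 72 h NL and 14.55 at 72 h HL. Before centring, its level at 12 h was thus about that at 72 h HL, with a ratio of 1.05. Its centred log2 ratio was 0.27. *ATG101*, a further subunit, was at 11.6, 18.8, 32.8 and 25.5 FPKM, with a ratio of 1.36 and a centred log2 ratio of 0.63. The regulatory subunit gene *ATG13* was at 5.25, 8.35, 5.64 and 5.15 FPKM, with a ratio of 0.617. The subunits therefore differed in side, 2 above and 1 below 0 on the centred scale.

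Beside *ATG18*, the genes listed with the ATG9 complex were within 2-fold. *ATG9*, the membrane protein that brings vesicles to the forming autophagosome, and *ATG2*, a lipid transfer protein, had ratios of 1.12 and 1.099. *VMP1*, a membrane protein of the endoplasmic reticulum, was at 13.8 FPKM at 0 h, 28.3 at 12 h, 25.9 at 72 h NL and 26.7 at 72 h HL. Its level was thus higher at 12 h under high light than in the replete culture at normal light. The *ATG18*-like gene lay on the opposite side from *ATG18*, with 54.4 FPKM at 12 h and 35.5 at 72 h HL. None of the 6 genes of the class III PI3-kinase complex, which makes the lipid signal for autophagosome growth, was past 2-fold, and their median centred log2 ratio was 0.02. *ATG14*, the subunit that directs this complex to autophagy, had the highest ratio of the 6, with 10.95 FPKM at 0 h, 13.2 at 12 h, 24.3 at 72 h NL and 19.8 at 72 h HL (centred log2 ratio of 0.76). The lipid kinase gene *VPS34* and its partner *ATG6* each had a ratio of 0.773 (centred log2 ratios of -0.14 and -0.15). *VPS15*, the regulatory kinase, had a ratio of 0.939 and a centred log2 ratio of 0.13.

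The genes of storage lipid and ARA were among those with the highest levels. *DesD5* (g4602) encodes the desaturase of the last step of ARA synthesis. It was at 178.6 FPKM at 0 h, 570 at 12 h, 1316 at 72 h NL and 1178 at 72 h HL. Under high light it was thus 2.07 times as high at 72 h, with a centred log2 ratio of 1.25, and it moved from rank 115 to rank 42. *MLDP* (g555) encodes the main coat protein of green algal lipid droplets. It was at 261 FPKM at 0 h, 1500.4 at 12 h, 901 at 72 h NL and 1212 at 72 h HL. Its ratio of 72 h over 12 h was 0.808 and its centred log2 ratio -0.10, and the gene was highest at 12 h among the 4 conditions. Against the replete culture at normal light, *DesD5* was 3.19 times as high at 12 h and *MLDP* 5.75 times as high, and only *DesD5* was past 2-fold between 12 h and 72 h HL.

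The 3 genes of fatty acid β-oxidation were within 2-fold. *ABC*, a transporter of the D family that carries fatty acids into the peroxisome in plants, had a ratio of 0.897. Its centred log2 ratio was 0.06. *MFP*, the multifunctional protein of the middle steps, was at 108.0 FPKM at 12 h and 138 at 72 h, a ratio of 1.28. *KAT*, the thiolase of the final step, was at 91.3 and 90.1 FPKM, a centred log2 ratio of 0.19. Of the genes related to phosphate, *PAPase* (g13792), a putative acid phosphatase, was at 42.0 FPKM at 0 h, 69.6 at 12 h, 128 at 72 h NL and 123 at 72 h HL. Its ratio of 1.77 corresponded to a centred log2 ratio of 1.02, just past the 2-fold limit, and it was past it under 6 of 11 alternatives. *VTC4*, a putative subunit of the polyphosphate polymerase, was at 44.8 FPKM at 12 h and 43.6 at 72 h HL (centred log2 ratio of 0.17). At 72 h NL *VTC4* was at 27.9 FPKM, and its highest level was 60.45 FPKM in the replete culture at 0 h. The reference genes used for qRT-PCR, *SNRP* and *COX3*, had centred log2 ratios of 0.18 and -0.00, both of which change sign with the scaling. Levels at 12 h and 72 h were 223 and 219 FPKM for *SNRP*, and 340 and 293 FPKM for *COX3*. The study chose both for stable expression without N, so small ratios were part of that choice.

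**Figure D4:**
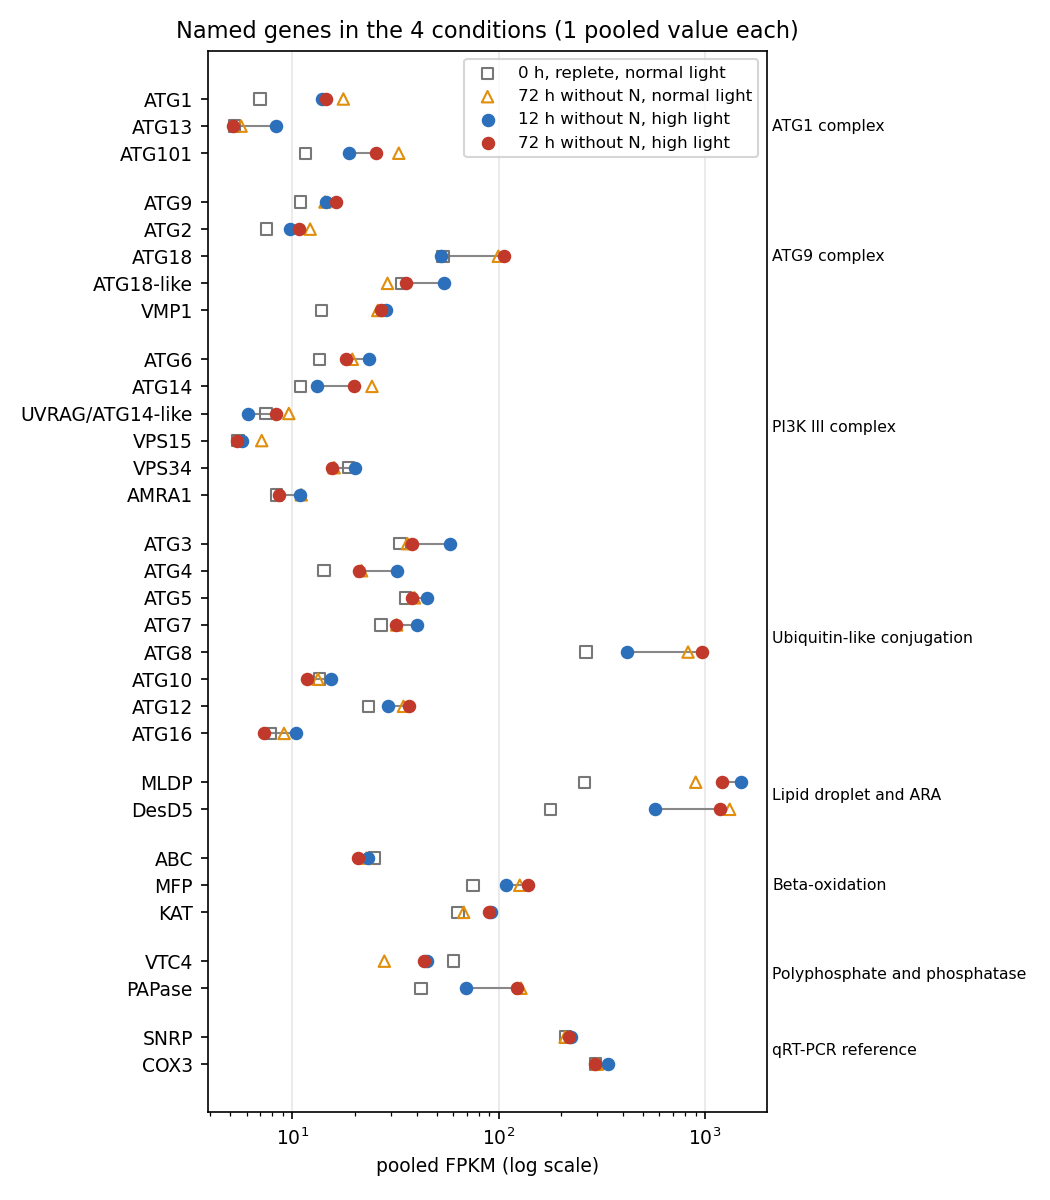
Pooled FPKM (log scale) of the 31 named genes in the 4 conditions, 1 pooled value per condition, with a line joining 12 h and 72 h under high light, grouped by function as given at the right. *ATG8*, *ATG18*, *DesD5* and *PAPase* lie to the right at 72 h past a centred 2-fold difference. *ATG3*, *ATG4* and *MLDP* are among several named genes with their highest level at 12 h. The median FPKM of all genes kept was also highest at 12 h (13.05 at 0 h, 15.95 at 12 h, 12.3 at 72 h NL and 12.25 at 72 h HL).

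The largest differences among all genes of at least 10 FPKM were in genes without a name in the files. Gene g12877 was at 15.5 FPKM at 0 h, 45.4 at 12 h, 2246 at 72 h NL and 1270 at 72 h HL, a ratio of 27.9 under high light and a centred log2 ratio of 4.98. It was the gene at rank 2755 at 12 h that reached rank 36 at 72 h. Gene g9529 was at 26.9 FPKM at 0 h, 162.9 at 12 h, 0.79 at 72 h NL and 1.29 at 72 h HL, a centred log2 ratio of -5.95. In both genes the 72 h conditions of either light lay on the same side of the 12 h level. The genes with the highest and the lowest ratio, g4213 and g10590, were listed at 0 FPKM at one of both times. Gene g4213 was at 16.5 FPKM at 0 h, 0 at 12 h, 37.15 at 72 h NL and 39.2 at 72 h HL. Gene g10590 was at 17.3 FPKM at 0 h, 266 at 12 h and 0 at both 72 h conditions. The intervals of g4213 were 2.46 to 3.69 times as wide as counting gives in the conditions where it was detected, and that of g10590 was 2.63 times as wide at 0 h and 1.19 times at 12 h, and no ratio is given for either gene. Whether reads shared with other sequences affect their levels was not tested.

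Genes with consecutive ID numbers differed in the same direction in larger shares than genes farther apart in number. The files give no coordinates, so whether consecutive numbers are neighbours in the genome was not tested. Where the next number after a higher gene was also kept, 300 of 1153 next genes (26.0%) were higher past 2-fold, beside 9.50% of the next genes of all genes. Where it followed a lower gene, 517 of 2017 next genes (25.6%) were lower, beside 16.1%. The opposite direction was below the level of all genes in both cases, with 10.2% lower after higher genes and 5.85% higher after lower genes. At a distance of 2 numbers the shares were 15.4% higher (9.40% around all genes) and 18.5% lower (16.2%). At a distance of 100 they were 9.57% higher (9.10% around all genes) and 15.1% lower (16.2%). Without the genes of wide interval the next-number shares were 24.3% higher (8.97% around all genes) and 25.5% lower (16.4%). In the ratio of 72 h NL over 0 h, they were 24.5% (10.5% around all genes) and 22.5% (13.4%). Higher genes formed 52 runs of at least 3 consecutive numbers with 184 genes in all, the longest of 8 genes. Lower genes, the larger group, formed 92 such runs with 295 genes, the longest of 6. How many runs groups of these sizes would form without any clustering was not computed, so the run counts are a description only.

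**Figure D5:**
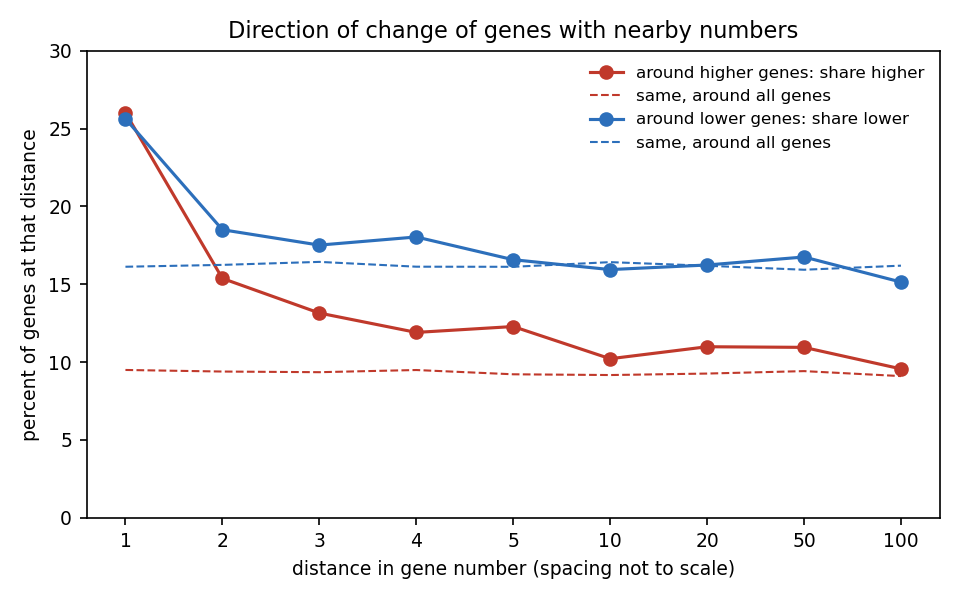
Percent of genes that were higher around higher genes (red) and lower around lower genes (blue) against the distance in gene number, with the same shares around all genes as dashed lines; distances are not to scale. Both curves stand at about 26% at distance 1 and approach the dashed lines at larger distances.

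Large differences in the share of a transcript within its gene were few. Transcript shares were read in 2291 genes with at least 2 transcripts and 100 expected counts at both times. In 141 of them (6.15%), a transcript's share of the gene was at least 20 percentage points larger at 72 h than at 12 h. The most abundant transcript differed in 190 genes, and only 71 genes had both. The median of the largest gain was 3.67 points. Such gains were found in 37 of 227 lower genes (16.3%), 95 of 1735 genes within 2-fold (5.48%) and 9 of 329 higher genes (2.74%). With at least 1000 expected counts at both times, the shares were 16.8%, 4.96% and 2.22%. The median expected count at 72 h differed in the same order, from 2417 in the lower genes through 9031 to 32285 in the higher genes, and its part in these shares was not tested further. In the libraries of 72 h NL and 0 h, 113 of 140 gaining transcripts (80.7%) also had the larger share at 72 h, with a median difference of 13.96 points. Among genes with a smaller gain the count was 1341 of 2060 (65.1%), with a median difference of 1.37 points. Of the named genes, 7 could be examined and none had a gain of 20 points. *ATG12* was the closest, as its first transcript held 56.0% at 0 h, 51.9% at 12 h, 69.9% at 72 h NL and 69.5% at 72 h HL. The second transcript of *ATG7* held 49.1%, 20.65%, 39.6% and 36.4% of the gene in the same order, and was thus lowest at 12 h.

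Genes with several transcripts held a larger share of higher and a smaller share of lower genes. Of 2300 genes with at least 2 transcripts, 14.3% were higher and 10.1% lower, against 8.45% and 17.3% of 11735 genes with 1 transcript. The former also had the higher levels, with a median of mean FPKM of 22.3 against 13.4. Within each quintile of mean FPKM the order was the same, from 6.99% against 6.71% higher in the lowest quintile to 28.3% against 16.8% in the top quintile. The share lower was 14.0% against 22.1% in the lowest quintile and 7.00% against 13.7% in the top quintile.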

How the data were processed

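RNA-seq libraries of 32 samples in 4 conditions were quantified by the authors, with RSEM (1.2.9), Bowtie (1.0.0), CASAVA (1.8), cutadapt (1.1) and DESeq (no version) named in the submitters' processing notes. Which version of assembly and annotation was used was not given in the sources used here. Deposited by the authors were expected counts (not normalized), TPM and FPKM per gene and transcript, with 1 pooled value per condition. They also deposited the percent of a gene held by each transcript, and 95% bounds of FPKM, which cover counting and read assignment only. The totals of the expected counts deposited by the authors were 148630272 at 0 h, 285924034 at 12 h, 329774484 at 72 h NL (normal light) and 214719396 at 72 h HL (high light). In the deposited tables the effective length equals the length in every row, so lengths were not corrected for read length. The authors' mean normalized counts per condition, a signal scaled by DESeq, served as an alternative. The deposited pairwise and all-condition comparisons also hold folds, log2 changes and p-values, which were not used.

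Computed here were log2 ratios of FPKM plus 1, less their median, over genes with at least 1 FPKM in either condition. This scale understates the change of low genes. With 1 pooled value per condition no test was computed, and genes past 2-, 4- and 8-fold were counted. Transcript shares were compared in genes with at least 100 expected counts at both times. The width of each interval was set against that of a Poisson count. Named in the text are the 31 genes that the study's tables name and, among genes of at least 10 FPKM at 12 h or 72 h HL, the 2 IDs with the largest and the 2 with the smallest ratio. The genes, lists and counts were chosen with earlier results of these data known. The ratio and centring steps were tested on simulated Poisson counts, with a small set of genes changed equally in both directions. That setting holds no spread between cultures and no excess of lower genes, so it does not test centring under such an excess. Alternatives were other scalings and units, pseudocounts of 0.1 and 10 FPKM, no minimum or 10 FPKM, the most abundant transcript, the authors' mean normalized counts and the nearest interval bounds. Computations used Python 3.11.15, matplotlib 3.10.9, scipy 1.17.1, pandas 2.3.3 and numpy 2.4.6.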

Additional observations from a re-analysis of the deposited data

How the results depend on the processing

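With a pseudocount of 10 FPKM, 613 genes were higher and 1016 lower past 2-fold, by construction fewer as this damps low genes. Under the other alternatives run the counts stayed within 1.5 times of 1322 and 2259, from 922 to 1644 higher and from 1590 to 2874 lower, and lower genes outnumbered higher ones in each. *ATG8* (1.21 to 1.53 on the log2 scale) and *DesD5* (1.04 to 1.36) were past 2-fold under all 11 alternatives that gave them a value. *ATG18* was past it under 9, not with no median subtracted or with counts divided by their total, and *PAPase* under 6. The median of the ATG-related genes ranged from -0.16 to 0.12. *VMP1*, *VPS15*, *ABC*, *KAT*, *VTC4*, *SNRP*, *ATG5* and *COX3* changed sign with the scaling. The analyses of wide intervals, of neighbours in the other conditions, of 1000 counts and of transcripts within quintiles of level were chosen after seeing the data. No paired analysis was possible because the values are pooled over replicates, and for the same reason leaving out replicates and count tests between replicates were not run. Counting error was small, and the spread between cultures could not be measured from the pooled values.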
